A study of Mus musculus with 4 samples.

Results

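Pvalb, Atp2a1, Car3 and Ckm are 4 genes known from skeletal muscle, followed here through their polyadenylated 3′ ends. They were chosen from read counts and oligo ratios of these same libraries, and each was located by a window on its own strand in mm9 coordinates. The windows were 17 kb on the minus strand of chromosome 15 for Pvalb, 18 kb on the minus strand of chromosome 7 for Atp2a1, 10.5 kb on the plus strand of chromosome 3 for Car3 and 13 kb on the plus strand of chromosome 7 for Ckm. Cleavage positions at most 24 nt apart were joined into clusters. The windows held 45 of the 56206 clusters with 3 or more reads. Because the choice rested on the contrast of the oligos, every ratio below is a description and not a test.

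The study mapped poly(A) sites of mouse RNA with 3'READS, in which fragments that carry a poly(A) tail are captured on beads and sequenced up to the cleavage position. Both 3'READS libraries came from RNA pooled from 11 mouse cell lines, bought as a mix, and both were amplified by 12 cycles of PCR. One was captured with the CU5T45 oligo, a stretch of 45 T with 5 U, then washed in low salt with formamide and released by RNase H. The other was captured on beads that carry 10 to 25 T, called oligo(dT)10-25. Each oligo had 1 library, so intervals cover counting error only and compare 2 libraries, not 2 conditions. CLIP-seq of CstF64, a cleavage factor that binds RNA next to poly(A) sites, came as 2 replicates from proliferating C2C12 cells, a mouse myoblast line. The labels name no muscle tissue, and the sources used here do not list the lines of the mix. Pvalb, a gene of differentiated muscle, took 1.71% of the CU5T45 and 1.37% of the oligo(dT)10-25 library. This seems high for a mix of cell lines, but no reference level for such a mix was at hand. The origin of this RNA was not tested.

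Contraction of a muscle fibre starts when calcium leaves the sarcoplasmic reticulum and ends when it is pumped back. Parvalbumin, encoded by Pvalb, buffers calcium in the cytosol of fast-twitch fibres, and Atp2a1 encodes the fast-twitch calcium pump of the sarcoplasmic reticulum. Ckm encodes the muscle creatine kinase, which restores ATP from phosphocreatine, and Car3 encodes carbonic anhydrase III, a cytosolic enzyme abundant in slow-twitch muscle, fat and liver. All of them are known as genes of differentiated tissue rather than of dividing myoblasts.

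The 3′ ends of the annotated transcripts are shown first, because the results turn on single cleavage positions, and cleavage is known to follow a poly(A) signal. The sequences were read from 1 GENCODE M21 transcript per gene on GRCm38, the first that the annotation numbers, in transcript sense. The search was for AATAAA and ATTAAA within 400 nt of the transcript end. Capitals mark these hexamers.

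Pvalb, signal 387 nt before the end: aacAATAAAggctgtaccaatcggacacca
Pvalb, last 30 bases, with neither hexamer: ctgtgataaaatacctgaaaagagaaactt
Atp2a1, signal 148 nt before the end: ataAATAAAgtcctccaccctcgtcccctt
Atp2a1, last 30 bases: tttattgaaAATAAAtgacagaaaagtctg
Car3, ATTAAA 175 nt before the end: cctATTAAAaacaaaaacaaacaaacaaaa
Car3, last 30 bases: gcattgatcacagaaacAATAAAagacaga
Ckm, last 30 bases: tgccttaAATAAAagtccgtgatggcctta

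The Pvalb transcript thus has its only such hexamer in that stretch far inside its last exon of 581 nt. Those of Atp2a1 and Car3 have 2 each, and that of Ckm has 1 close to its end. These transcripts are on another build than the reads. Only distances within a gene are therefore set beside the mapped positions, and the exon or UTR at a mapped position was not read.

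Pvalb and Ckm took similar shares of both libraries, while Atp2a1 was higher with CU5T45 and Car3 with oligo(dT)10-25. Together the windows held 155932 reads, or 2.31% of the CU5T45 library of 6738355 reads, and 84055 reads, or 2.41% of the oligo(dT)10-25 library of 3482826 reads. Each read marks 1 3′ end, so levels were not divided by transcript length. They are in CPM, the counts scaled to a library of 1e+06 reads. For the level of a gene within a library of this bulk RNA, fewer cells of a type and less RNA per cell cannot be told apart. Both libraries came from RNA of 11 pooled lines. Amplified copies could not be told from separate molecules, so the counting intervals may be too narrow.

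Pvalb was the most abundant of them with either oligo. It had 114947 reads with CU5T45, a level of 17059 CPM (95% Poisson interval 16960 to 17157), and 47802 reads with oligo(dT)10-25, 13725 CPM (13602 to 13849). The ratio of its library shares, CU5T45 over oligo(dT)10-25, was 1.24 (95% exact conditional binomial interval 1.23 to 1.26). Its main cluster ranked 2 of 56112 nuclear clusters by CU5T45 reads and 4 by oligo(dT)10-25 reads.

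Atp2a1 was captured mainly with CU5T45. It had 30292 reads at 4495 CPM (4445 to 4546) against 2857 reads at 820 CPM (791 to 851), a ratio of 5.48 (5.27 to 5.70). Its main cluster ranked 13 by CU5T45 reads and 130 by oligo(dT)10-25 reads. Car3 showed the opposite. It had 8271 reads at 1227 CPM (1201 to 1254) against 32311 reads at 9277 CPM (9176 to 9379), which is 7.56-fold lower with CU5T45 (7.38 to 7.74). Its main cluster ranked 90 by CU5T45 reads and 8 by oligo(dT)10-25 reads.

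Ckm was the least abundant and nearly even. It had 2422 reads at 359 CPM (345 to 374) against 1085 reads at 312 CPM (293 to 331), a ratio of 1.15 (1.07 to 1.24). The order of the genes by CPM therefore depended on the oligo. With CU5T45 it was Pvalb, Atp2a1, Car3 and Ckm, and with oligo(dT)10-25 it was Pvalb, Car3, Atp2a1 and Ckm. No 2 neighbours in either order had overlapping counting intervals.

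**Figure D1:**
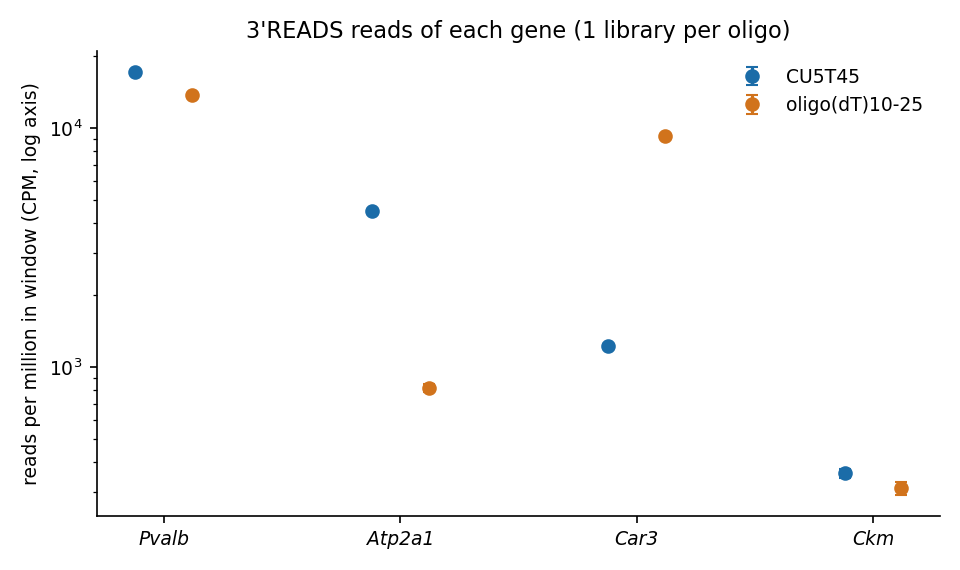
Level of each gene window in CPM (log axis), with 1 point per library and 95% Poisson intervals, most of them smaller than the points. Pvalb and Ckm have their points close together, Atp2a1 lies higher with CU5T45 (4495 against 820 CPM) and Car3 lies higher with oligo(dT)10-25 (9277 against 1227 CPM).

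The spread of the same ratio over all nuclear clusters with 30 or more reads shows where the genes lie. Of 16636 such clusters, 27.6% had an interval of the ratio above 1 and 23.3% an interval below 1, beside 3 and 1 of the 4 main clusters. The main clusters had 3416 or more reads over both libraries and so had narrow intervals, and this comparison was not matched for depth. The values of Pvalb, at 1.26, and Ckm, at 1.16, lie in the middle of that spread, with 60.8% and 54.5% of clusters at a lower ratio. A ratio at least 4-fold higher in CU5T45 was found at 1.76% of clusters, and the main cluster of Atp2a1 is one, at 5.59 (5.38 to 5.81). A ratio at least 4-fold lower was found at 4.51%, and that of Car3 is one, 7.61-fold lower (7.42 to 7.79). The median ratio of all these clusters was 1.08, a shift of 0.11 on the log2 scale. Against that median the main clusters stood at 1.17 for Pvalb, 5.17 for Atp2a1, 0.122 for Car3 and 1.07 for Ckm.

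**Figure D2:**
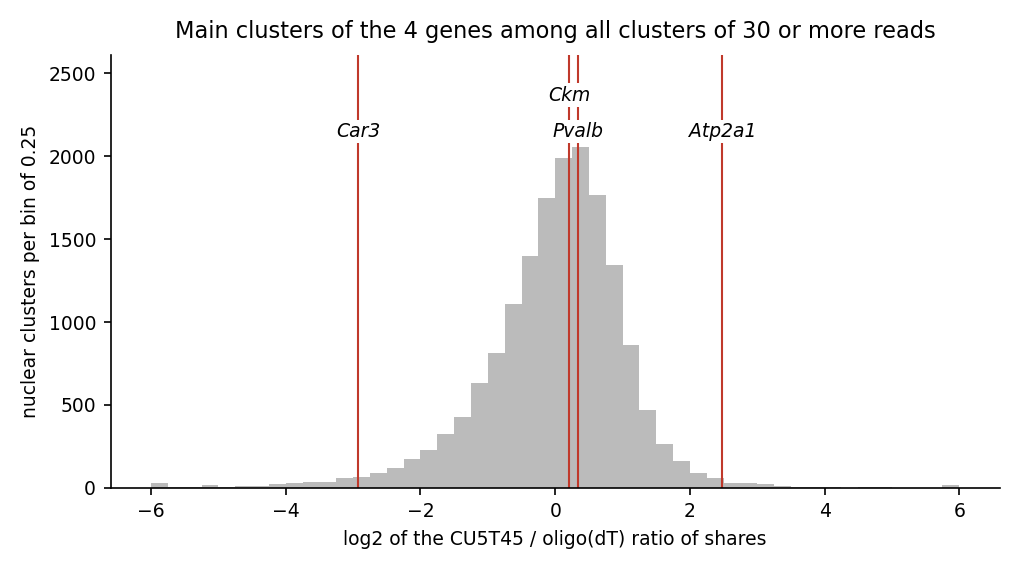
Histogram of the log2 ratio of shares, CU5T45 over oligo(dT)10-25, at 16636 nuclear clusters with 30 or more reads in bins of 0.25 (values beyond 6 in the outer bins), with lines at the main clusters of the 4 genes. Pvalb (0.34) and Ckm (0.21) fall in the centre, Atp2a1 (2.48) in the upper tail and Car3 (-2.93) in the lower tail.

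Among nuclear clusters with 10000 or more reads outside the windows, the nearest in ratio to Pvalb was on the minus strand of chromosome 2 at 164602660, with 1.26, and the next had 1.25. The nearest to Ckm were on the minus strands of chromosome 1 at 166367242, with 1.17, and chromosome 16 at 10788027, with 1.14. The nearest to Atp2a1 was on the minus strand of chromosome 4 at 136976918, with a ratio of 4.51, and the next on the minus strand of chromosome 7 at 34728027, with 2.79. The nearest to Car3 was on the minus strand of chromosome 6 at 132388170, 7.17-fold lower with CU5T45, and the next on the minus strand of chromosome 2 at 164101687, 3.92-fold lower. This likeness is in a single ratio between 2 libraries.

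Nearly all reads of each gene ended in 1 main cluster. It held 95.6% of Pvalb reads with CU5T45 and 94.1% with oligo(dT)10-25, 99.7% and 97.7% of those of Atp2a1, 99.2% and 99.9% of those of Car3, and 97.4% and 97.3% of those of Ckm. Each main cluster was wide, spanning 167 nt in Pvalb, 158 nt in Atp2a1, 113 nt in Car3 and 138 nt in Ckm. Over 3903 nuclear clusters with 100 or more reads in each library the median span was 23 nt, and 1.72% spanned more than 100 nt. Span grows with the number of reads, for which this comparison was not matched.

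Cleavage of Pvalb was spread over many positions. Its main cluster had 67 positions from 78021856 to 78022022, and 8 of them were needed to reach 90% of its reads over both libraries, against 2 in Atp2a1, 1 in Car3 and 2 in Ckm. The most used position, 78021908, held 46.8% (46.5 to 47.1) of the cluster with CU5T45 and 49.3% (48.9 to 49.8) with oligo(dT)10-25, from 51394 and 22207 reads. With oligo(dT)10-25 this share was no lower than in Atp2a1, whose most used position held 49.2% (47.4 to 51.1). The median over the 3903 clusters was 75.8% and 76.1%. The next position, 18 nt downstream at 78021890, had 25788 and 9945 reads, and the third, 5 nt downstream at 78021903, had 9205 and 4807 reads.

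Among the 5 most read positions of the Pvalb main cluster the ratio was highest at those furthest downstream. It was 1.20 (1.18 to 1.22) at 78021908, 0.990 (0.956 to 1.03) at 78021903 and 1.34 (1.31 to 1.37) at 78021890. Further downstream it was 1.82 (1.70 to 1.95) at 78021885, with 3708 and 1055 reads, and 2.02 (1.87 to 2.17) at 78021877, with 3398 and 871 reads. The position 2 nt upstream of the most used one, 78021910, had 1389 and 1060 reads and was the only position of the main cluster with 30 or more reads whose interval lay below 1, at 0.677 (0.625 to 0.734). Other positions broke this order. At 78021906, 2 nt downstream, with 1334 and 354 reads, the ratio was 1.95 (1.73 to 2.20). At 78021860, 48 nt downstream, with 1452 and 495 reads, it was 1.52 (1.37 to 1.68).

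Divided by place, a division made after the values were seen, the 17 positions of 30 or more reads that lay 19 to 48 nt downstream had ratios from 1.22 to 4.55. Of these, 14 had an interval above 1, and their summed ratio was 1.82 (1.76 to 1.88). The 14 positions from 3 nt upstream to 18 nt downstream had ratios from 0.677 to 1.95, so the ranges overlapped. They summed to 1.20 (1.19 to 1.22), with 8 intervals above 1 and 1 below 1. The 3 positions further upstream had few reads, 121 and 24, and summed to 2.61 (1.67 to 4.22). In the whole main cluster, 24 of 34 such positions had an interval above 1 and 1 had an interval below 1, beside 28.4% and 20.1% of 23560 nuclear positions with 30 or more reads. Many of these Pvalb positions were deeply covered and so had narrow intervals.

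**Figure D3:**
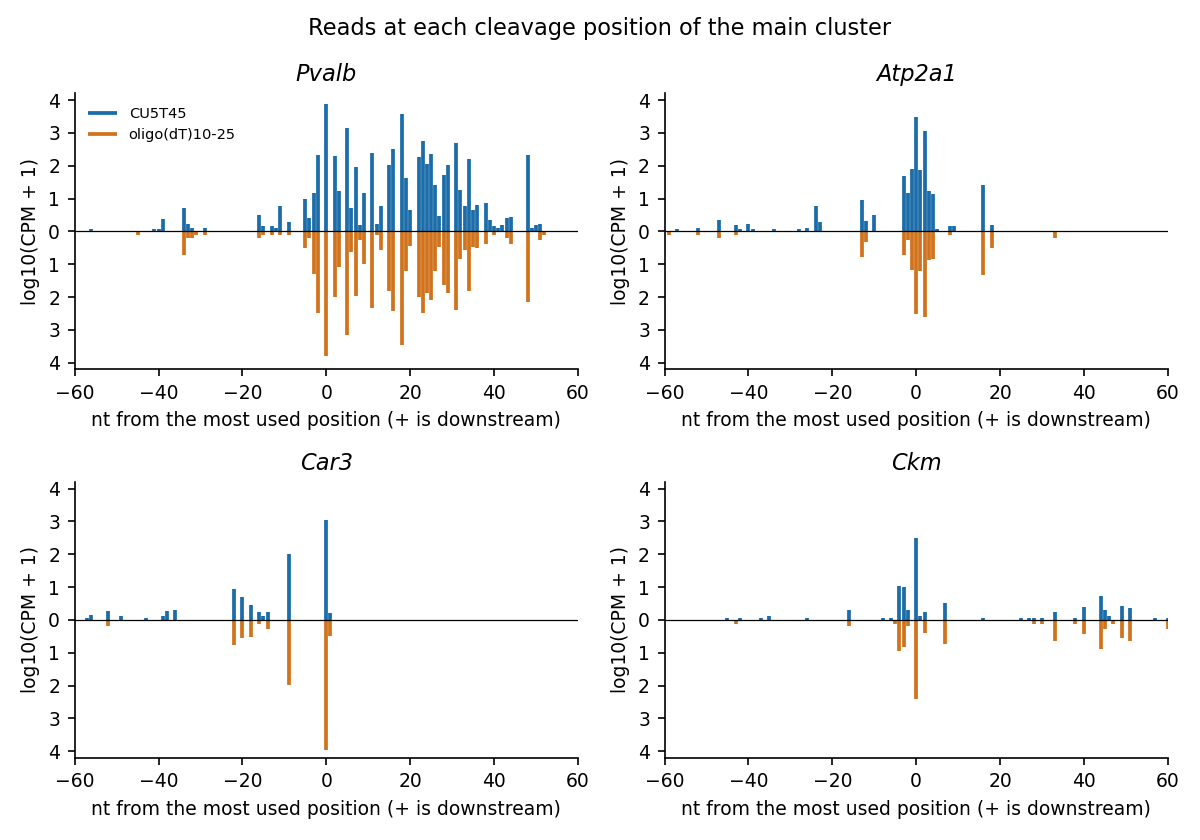
Reads at each cleavage position within 60 nt of the most used position of the main cluster, as log10(CPM + 1), with CU5T45 drawn upward and oligo(dT)10-25 downward and the direction of transcription to the right. Pvalb spreads over many positions up to 48 nt downstream, Atp2a1 has 2 high positions 2 nt apart, Car3 has 1 dominant position with a second 9 nt upstream, and Ckm has 1 dominant position.

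In Atp2a1 the oligos differed in which nucleotide was most used. CU5T45 had most reads at 133589373, with 20745 reads and 68.7% (68.2 to 69.2) of its main cluster. Oligo(dT)10-25 had most at 133589371, 2 nt downstream, with 1374 reads and 49.2% (47.4 to 51.1). At 133589373 it had 1136 reads, and CU5T45 had 7498 reads at 133589371. The most used position differed between the oligos in 6.76% of the 3903 clusters.

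The ratio at these neighbouring nucleotides of Atp2a1 was far apart. It was 9.44 (8.89 to 10.0) at 133589373 and 2.82 (2.66 to 2.99) at 133589371, so the first was 3.35 times the second (exact conditional interval 3.08 to 3.64). The high ratio also held at the low-count positions just upstream. It was 5.65 (4.19 to 7.79) at 133589374, with 514 and 47 reads, and 11.3 (6.77 to 20.5) at 133589376, with 329 and 15 reads. Away from this core the positions differed. The ratio was 1.25 (0.940 to 1.69) at 133589357, 16 nt downstream, with 165 and 68 reads, and 1.67 (0.956 to 3.07) at 133589386, 13 nt upstream, with 55 and 17 reads, both with intervals that included 1. At 133589397, 24 nt upstream, there were 34 and 0 reads, and the lower bound of the ratio was 4.51. Of 11 positions with 30 or more reads, 9 had an interval above 1 and 0 an interval below 1. Over 23560 nuclear positions with 30 or more reads these shares were 28.4% and 20.1%. The 11 positions belong to 1 cluster with a high ratio, so they are not separate results.

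In Car3 the lower share with CU5T45 was carried by 1 nucleotide. Position 14872538 had 7376 CU5T45 reads and 31876 oligo(dT)10-25 reads, 8.36-fold lower with CU5T45 (8.15 to 8.58). It held 89.9% (89.2 to 90.5) and 98.8% (98.7 to 98.9) of the reads of the main cluster. Position 14872529, 9 nt upstream, had 665 and 328 reads, a ratio of 1.05 (0.917 to 1.20). The ratios at these positions differed 8.76-fold (7.65 to 10.1).

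The other 2 positions of the Car3 main cluster with 30 or more reads also had intervals that included 1. Those at 14872516 and 14872518 had 51 and 17 reads and 28 and 9 reads, with ratios of 1.55 (0.881 to 2.86) and 1.61 (0.738 to 3.87). Without the most used position, the main cluster had 831 and 387 reads and a ratio of 1.11 (0.983 to 1.26). In Atp2a1 the same step took the main cluster from 5.59 to 2.95 (2.80 to 3.11), with 9446 and 1655 reads, still above 1.

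Such steps between neighbouring nucleotides were uncommon but not limited to these genes. In 4649 nuclear clusters whose 2 most read positions had 30 or more reads each and lay at most 10 nt apart, the ratios of those positions were at least 3-fold apart in 5.96%, Atp2a1 and Car3 among them, and at least 8-fold apart in 0.71%, Car3 among them. Reads stacked on 1 cleavage position cannot be divided into copies of the same fragment and separate fragments, because the files give only the 3′ position. The part of amplification in these ratios was not tested.

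**Figure D4:**
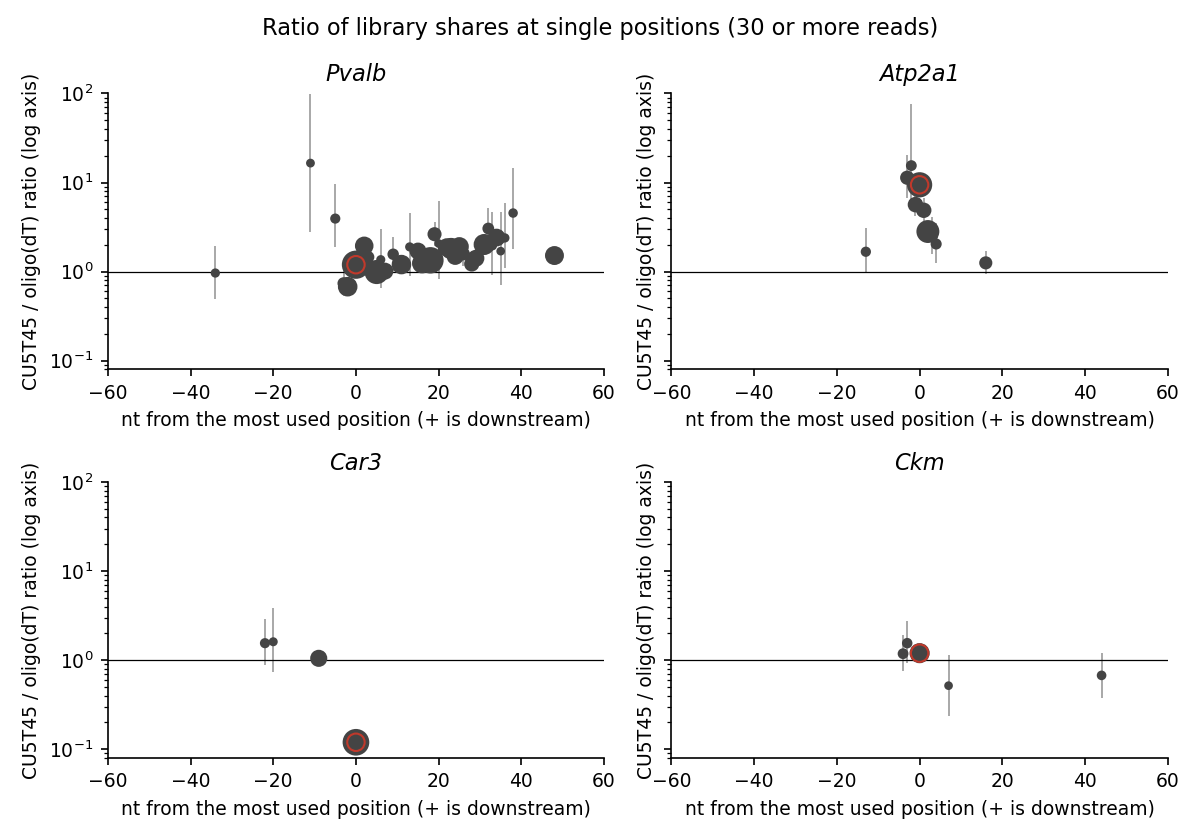
Ratio of library shares (log axis) at single positions of the main cluster with 30 or more reads, with 95% exact conditional intervals, against distance from the most used position, which is circled in red; larger points have more reads, and 1 Atp2a1 position without oligo(dT)10-25 reads is not drawn, and 1 Pvalb interval runs beyond the axis. Ratios run from 0.677 to 16.5 in Pvalb and from 1.25 to 15.5 in Atp2a1, while in Car3 the circled point is far below the others.

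Ckm had 1 dominant cleavage position, the same with both oligos. Position 20006932 had 2108 and 910 reads, 89.3% (88.0 to 90.5) and 86.2% (83.9 to 88.2) of the main cluster, and a ratio of 1.20 (1.11 to 1.30). The positions 4 and 3 nt upstream had 64 and 28 reads and 60 and 20 reads, with ratios of 1.18 (0.747 to 1.91) and 1.55 (0.921 to 2.72). Downstream, the position at 20006976 had 30 and 23 reads, at 0.674 (0.379 to 1.22), and that at 20006939 had 15 reads with each oligo. Without the most used position the main cluster of Ckm had 252 and 146 reads and a ratio of 0.892 (0.725 to 1.10), so its interval no longer lay above 1. Divided by the median ratio of all clusters, the whole Ckm window stood at 1.07 (0.993 to 1.15), an interval that included 1.

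Pvalb alone among the 4 genes had a tandem 3′ end with more than 1% of its reads. This cluster ran from 78021509 to 78021597 with its peak at 78021541, 367 nt downstream of the main peak. The hexamer of the Pvalb transcript starts 387 nt before the annotated end. The tandem cluster had 5002 and 2768 reads, which is 4.35% (4.23 to 4.47) of the gene with CU5T45 and 5.79% (5.58 to 6.0) with oligo(dT)10-25. Its ratio of shares was 0.934 (0.891 to 0.979), on the other side of 1 from the main cluster, whose ratio was 1.35 times as large (1.29 to 1.42).

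The tandem end of Pvalb also had no single dominant nucleotide, and its most used position depended on the oligo. CU5T45 had 2536 reads at 78021541 and 2038 at 78021546, while oligo(dT)10-25 had 1130 and 1320. The ratios were 1.16 (1.08 to 1.25) and 0.798 (0.744 to 0.856), and at 78021536, with 352 and 280 reads, it was 0.650 (0.554 to 0.763). Between the main and the tandem cluster lay small clusters 114 and 153 nt downstream of the main peak, with 9 and 12 reads and 15 and 5 reads. The cluster furthest downstream, at 503 nt, had 5 and 2 reads.

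The other genes had only traces of tandem ends. In Car3 the cluster 238 nt upstream of the main peak, at 14872300, had 20 and 16 reads, 0.242% (0.148 to 0.373) and 0.0495% (0.0283 to 0.0804) of the gene. The 2 hexamers of the Car3 transcript lie 162 nt apart, and 0 reads of either oligo lay within 15 nt of that distance upstream of the main peak. The AATAAA hexamers of the Atp2a1 transcript lie 127 nt apart, and at that distance upstream, within 15 nt, its main cluster had 19 and 12 reads. Downstream of the main cluster, Atp2a1 had 0 reads in its window, Car3 had 1 and 0, and Ckm had 4 and 2.

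Reads inside the genes, upstream of the main cluster, were few and did not carry the large differences. Atp2a1 had 101 and 66 of them at 95 positions, a ratio of 0.791 (0.574 to 1.10), against 5.59 at its main cluster. The main cluster's ratio was thus 7.07 times that of the rest of the window (5.09 to 9.76). Car3 had 63 and 48 at 52 positions, a ratio of 0.678 (0.459 to 1.01). Over all its positions outside the main cluster, with 64 and 48 reads, the ratio was 0.689 (0.467 to 1.02), which was 5.24 times that of the main cluster (3.55 to 7.79).

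Pvalb and Ckm differed from these genes in size but had the same sparse pattern. Pvalb had 60 and 12 reads at 41 upstream positions, a ratio of 2.58 (1.38 to 5.28). Ckm had 58 and 27 at 56 upstream positions, a ratio of 1.11 (0.692 to 1.82). As a share of each gene's reads, these internal ends were 0.0522% and 0.0251% in Pvalb, 0.333% and 2.31% in Atp2a1, 0.762% and 0.149% in Car3, and 2.39% and 2.49% in Ckm. In Atp2a1 and Car3 the oligo with the smaller library share at the main cluster had the larger internal share. The main cluster made up nearly all reads of each gene, so this follows largely from the totals and is not a separate result.

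**Figure D5:**
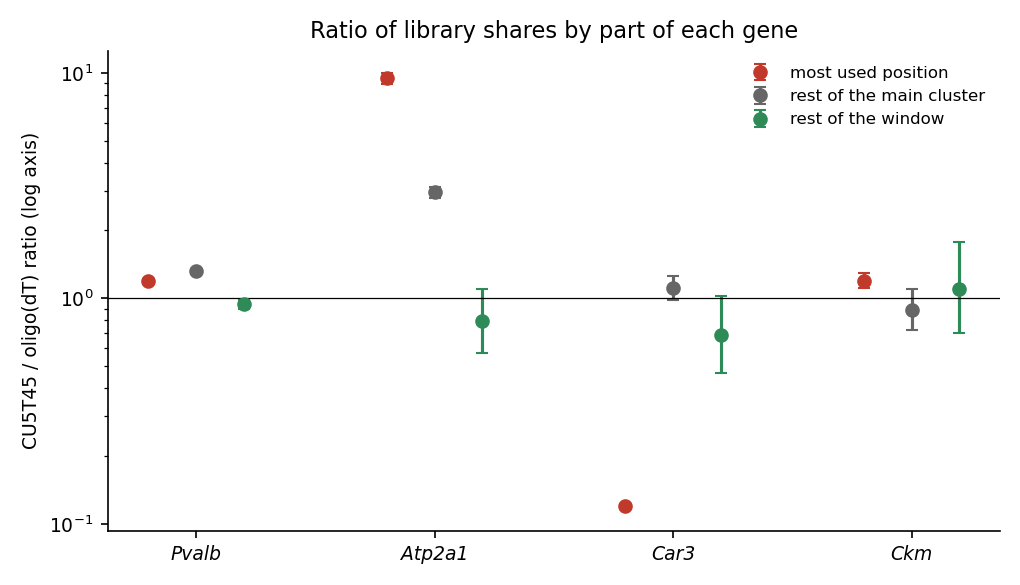
Ratio of library shares, CU5T45 over oligo(dT)10-25 (log axis), with 95% exact conditional intervals, for the most used position, the other positions of the main cluster and all remaining positions of each window. Atp2a1 falls from 9.44 over 2.95 to 0.791, Car3 goes from 0.120 to 1.11 and 0.689, and Pvalb and Ckm stay between 0.892 and 1.33. In Pvalb the remaining reads are mostly those of its tandem cluster downstream, and in the other genes mostly internal ones. The Pvalb upstream reads alone, not drawn, had a ratio of 2.58 (1.38 to 5.28).

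The largest internal clusters lay at separate places along each gene. In Pvalb they peaked 9800 and 11070 nt upstream of the main peak, with 24 and 6 reads and 23 and 3 reads, and the longest intron of the annotated Pvalb transcript is 9531 nt. In Atp2a1, whose annotated transcript spans 17251 nt, the largest lay 17140 nt upstream with 8 and 15 reads, and the next 9118 nt upstream with 19 and 3 reads. A pair of small clusters 10350 and 10396 nt upstream had 14 and 5 and 8 and 8 reads. In Ckm the largest lay 4790 nt upstream with 19 and 8 reads.

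Of the internal clusters, 3 had an interval of the ratio that did not include 1. The windows held 45 clusters in all, main and downstream ones included. Among so many intervals, some can miss 1 by counting error alone. The one 11070 nt upstream in Pvalb had a ratio of 3.96 (1.20 to 20.6). The one 17140 nt upstream in Atp2a1 had a ratio of 0.276 (0.101 to 0.693), and the one 598 nt upstream in Car3, with 5 and 18 reads, a ratio of 0.144 (0.0417 to 0.401). These 3 clusters had 26, 23 and 23 reads over both libraries, fewer than the 30 required of clusters in the genome-wide spread. They are therefore not read as differences between the oligos. The internal clusters not named above had 3 to 12 reads each. Positions with a single read over both libraries numbered 49 in Pvalb, 80 in Atp2a1, 48 in Car3 and 61 in Ckm. At this depth no ratio could be read from most of them.

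Few CstF64 alignments from C2C12 cells lay on the transcribed strand of these windows, as was common at abundant sites (next paragraph). On the transcribed strand, the Pvalb window of 17 kb and the Ckm window of 13 kb had 0 alignments in both replicates, which allows up to 3 in each. Car3 had 1 and 2 alignments, all starting at 14870822 and centred 1687.5 to 1689 nt upstream of the main peak. Atp2a1 had 1 in each, the same alignment from 133589169 to 133589203, centred 187 nt downstream of the main peak. The amount of these RNAs in C2C12 cells was not measured, so little binding and little RNA cannot be told apart.

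An abundant site without CstF64 alignments was not unusual. Within 200 nt of the peak, on the same strand, 34.3% of 1441 nuclear clusters with 1000 or more reads had no alignment in either replicate, and so did 57% of 114 clusters with 10000 or more. The main clusters of Pvalb, Car3 and Ckm were among such clusters, and that of Atp2a1 had its 1 alignment in each replicate. The replicates were counted as 1 sample. Of the alignments of replicate 1, 80.7% were also in replicate 2, and at 574 clusters with 10 or more alignments their counts differed by less than sampling noise (chi-square divided by its degrees of freedom 0.221).

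Signal on the opposite strand was found in the Atp2a1 window and in none of the other 3. There CstF64 had 16 and 15 alignments, 13 of them identical, which ran from 32.5 nt downstream to 8559 nt upstream of the Atp2a1 main peak. On that strand 3'READS had a cluster at 133589414 to 133589418 with 13 CU5T45 and 56 oligo(dT)10-25 reads, 8.33-fold lower with CU5T45 (4.50 to 16.6), and peaks of the 2 strands lay 41 nt apart. The annotation places Rabep2, which encodes a Rab GTPase effector, on the opposite strand with an overlap of 3388 nt with Atp2a1. In both replicates some alignments lay further from the main peak than this length, up to 8559 nt upstream. The length is from another build, and where the main peak lies relative to the annotated end was not read. A group of alignments centred 3432.5 to 3437 nt upstream was too close to this length to be placed inside or outside the overlap. The source of the opposite-strand alignments was not tested. The Atp2a1 main cluster itself was 5.59 times as high with CU5T45, so these convergent ends went in opposite directions. Most reads of the opposite-strand cluster, 11 and 49, lay at 133589414 alone. How often convergent ends differ in this way over the genome was not counted.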

How the data were processed

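The deposited files give, per line, a cleavage position (3'READS) or a distinct alignment (CLIP-seq) with strand and read count. The counts are whole numbers as deposited by the authors, without normalization. The submitters' processing notes name mm9, Bowtie and Novoalign without version or role. Filters, including any for internal A-rich capture, are not given in the sources used here, nor is whether positions count from 0 or 1.

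The members and lists were chosen with earlier results of these data known. Windows were fixed by coordinates, and positions of both libraries were chained at gaps of at most 24 nt, with clusters of 3 or more reads kept. Shares were divided by all reads of a library. Ratios have exact conditional binomial intervals, shares of a gene or cluster Clopper-Pearson intervals, levels exact Poisson intervals, all at 95% and for counting error only. A count of 0 was read as up to 3 reads, 0.445 CPM in CU5T45 and 0.861 CPM in oligo(dT)10-25. CLIP alignments were placed by midpoint. No p-value was computed, since each oligo had 1 library. The ratio was also run on simulated Poisson counts with planted ratios. These follow the counting model that the intervals assume, so they cannot show the effect of amplified copies.

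Described were the main cluster, clusters with at least 1% of a gene's reads, up to 6 largest others and the 5 most read positions, besides the 2 clusters nearest in ratio. Others named, including Pvalb tandem positions, low-count Atp2a1 positions and opposite-strand signal, were chosen after their values were seen. Other muscle genes were not analysed here because no mm9 annotation was used. Alternatives changed gap, read minimum, counting, totals, scaling, thinning, window and CLIP placement. Scripts used scipy 1.17.1, numpy 2.4.6, matplotlib 3.10.9 and pandas 2.3.3 under Python 3.11.15.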

Additional observations from a re-analysis of the deposited data

How the results depend on the processing

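Of 127 comparisons with an alternative setting, 90 stayed within the interval or count range of the reported value. Leaving out the most used position, an alternative chosen for the windows after seeing the data, turned the window ratio of Car3 to 1.06 and of Ckm to 0.927, and gave 2.87 for Atp2a1 and 1.28 for Pvalb. For main clusters the same step turned Car3 to 1.11 and Ckm to 0.892, and gave 2.95 for Atp2a1 and 1.33 for Pvalb. Leaving out the whole main cluster, also added later, turned Pvalb to 0.940 and Atp2a1 to 0.791 and left Car3 at 0.689. Counting each position once turned Atp2a1 to 0.932 and Car3 to 1.18, with 1.15 for Pvalb and 1.26 for Ckm. This counts where reads lie and not how many, so it does not measure abundance. Dividing by the median ratio gave windows of 1.15 for Pvalb, 5.07 for Atp2a1, 0.122 for Car3 and 1.07 for Ckm, and main clusters of 1.17, 5.17, 0.122 and 1.07. Totals without mitochondrial positions gave 1.21 and 0.128 for the Pvalb and Car3 windows, and 1.23 and 0.128 for their main clusters. The number of clusters depended on the read minimum. With 10 reads it was 5 in Atp2a1, 3 in Car3 and 4 in Ckm, and with 1 read 44, 23 and 24. Requiring 100 reads left 97 clusters 4-fold higher and 257 lower, from 292 and 751. Fewer clusters are compared at this setting, and the share called among them was not computed. Without CLIP replicate 1 or 2, alignments were 0 in Pvalb and Ckm, 1 in Atp2a1 and 1 to 2 in Car3. As 80.7% of the alignments of replicate 1 were also in replicate 2, this step is not an independent check. No paired analysis was possible because the oligos have a single library each, and no other group shares the replicate numbers of the CLIP-seq.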
